A study of Mus musculus with 4 samples.

Results

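Wnt ligands, their receptors and the proteins that tune them were followed in mammospheres, which are spheres grown in suspension from mammary cells. The set was defined by gene symbol, with earlier results of these data known. It took in all Wnt, Fzd, Sfrp, Dkk, Rspo and Lgr genes of the numbered families. Added to these were Lrp5, Lrp6, Axin1, Axin2, Tcf7, Tcf7l1, Tcf7l2, Lef1, Ctnnb1, Wif1, Znrf3, Rnf43 and Nkd1. It holds 57 of the 22609 genes in the count tables, made up of 19 ligands, 12 receptors, 9 secreted inhibitors, 9 genes of the R-spondin axis and 8 intracellular genes. The spheres grew for 7 days from mammary cells sorted as basal from Balb/C mice aged 4 months, all kept on a diet low in phytoestrogens. The control library came from mice gavaged with sesame oil for 3 weeks from day 21. The BPA library came from mice given bisphenol A, an estrogenic compound used in plastics, at a dose of 25 µg/kg/day over the same weeks. The DMBA library came from oil-treated mice that received 30 mg/kg of the carcinogen 7,12-dimethylbenz[a]anthracene by a single gavage at 2 months, and the BPA+DMBA library from mice given both. A group is a single library pooling spheres from 5 animals, so no group has a replicate, and differences between single libraries have no replicate check.

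Wnt proteins are secreted lipid-modified ligands that bind Frizzled receptors and, for the canonical branch, the co-receptors Lrp5 and Lrp6. Binding stops the Axin and Apc complex from marking beta-catenin for destruction, and beta-catenin then joins Tcf and Lef factors on target genes such as Axin2. R-spondins raise the signal by drawing the ubiquitin ligases Znrf3 and Rnf43 to Lgr receptors, while Sfrp proteins and Wif1 capture ligands and Dkk1 acts at the co-receptors. In the mammary gland the pathway is known for maintaining basal stem cells and for branching under progesterone.

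Counts assigned to genes ranged from 15672532 in BPA+DMBA to 30627055 in control. Of the 57 genes, 6 had 0 counts in every library (Dkk4, Rspo2, Wnt3, Wnt3a, Wnt8a and Wnt8b), 11 reached 1 to 19 counts at most, and 40 reached at least 20 counts in at least 1 library and were tested. Levels are in CPM, counts scaled by effective library size, on which the 3 counts that a 0 still allows equal 0.101 in control and 0.189 in the combined library. All 15 markers fixed for basal cells were detected, but the libraries also held markers of other cells. Luminal markers had summed levels of 5889, 6281, 5261 and 5215 CPM across control, BPA, DMBA and the combined library, with Krt8, Krt18 and Epcam abundant, against 3812, 3912, 5482 and 5315 CPM for the basal markers. Fibroblast markers, led by collagens, summed to 11890, 8782, 7770 and 12270 CPM. Endothelial markers summed to 64.2, 78.7, 123 and 121 CPM, immune markers to 24.1, 29.1, 25.8 and 29.7 CPM and adipocyte markers to 7.18, 8.52, 20.9 and 18.0 CPM. Of these lists 9 of 15 basal, 2 of 16 luminal, 3 of 15 fibroblast, 7 of 12 endothelial, 1 of 3 immune and 1 of 2 adipocyte markers rose with DMBA, and 5 luminal markers fell. These calls come from the additive test described below, in which 6.67% of all tested genes were higher and 7.72% lower. Of the immune markers 9 of 12 stayed under 20 counts, among them the pan-leukocyte Ptprc at 3 or fewer. However, the macrophage marker Cd68 had 630, 512, 637 and 373 counts, Csf1r 45, 15, 18 and 24 and Lyz2 8, 7, 31 and 44. Of the adipocyte markers 4 of 6 stayed under 20, Adipoq at 5 or fewer, while Fabp4 had 169, 122, 494 and 241 counts. In pooled spheres of this kind, fewer cells of a type and less RNA per cell cannot be told apart.

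The mix of Wnt ligands differed in the DMBA-exposed libraries. Wnt10a, Wnt5a, Wnt4 and Wnt11 rose, Wnt7b and Wnt5b fell, and the secreted inhibitors Dkk3, Sfrp1 and Wif1 rose. The receptors Fzd5 and Lrp6 and the nuclear factor Tcf7l2 fell. In all, 12 of the 40 tested genes passed the additive test for DMBA, 7 higher and 5 lower, beside 14.4% of all 13638 tested genes, 6.67% higher and 7.72% lower. The additive test (edgeR's quasi-likelihood test of BPA and DMBA over all 4 libraries, Benjamini-Hochberg adjustment over all tested genes, threshold 0.05) takes its error from the interaction, which leaves 1 residual degree of freedom. The median log2 change for DMBA was -0.15 over the 40 genes and -0.0025 over all tested genes. With median-ratio size factors in place of trimmed-mean scaling 3 of the genes passed higher and 5 lower, beside 5.11% and 5.95% of all tested genes. DESeq2 called 4 and 3, beside 2.50% and 2.45%. With the trend of the changes on transcript length removed, 3 passed higher and 2 lower, beside 4.2% and 2.92%. Total counts as scaling gave 5 and 4, beside 6.52% and 3.16%, so the balance of all calls, 909 higher and 1053 lower here, became 889 and 431 there and 573 and 398 without the length trend.

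**Figure D1:**
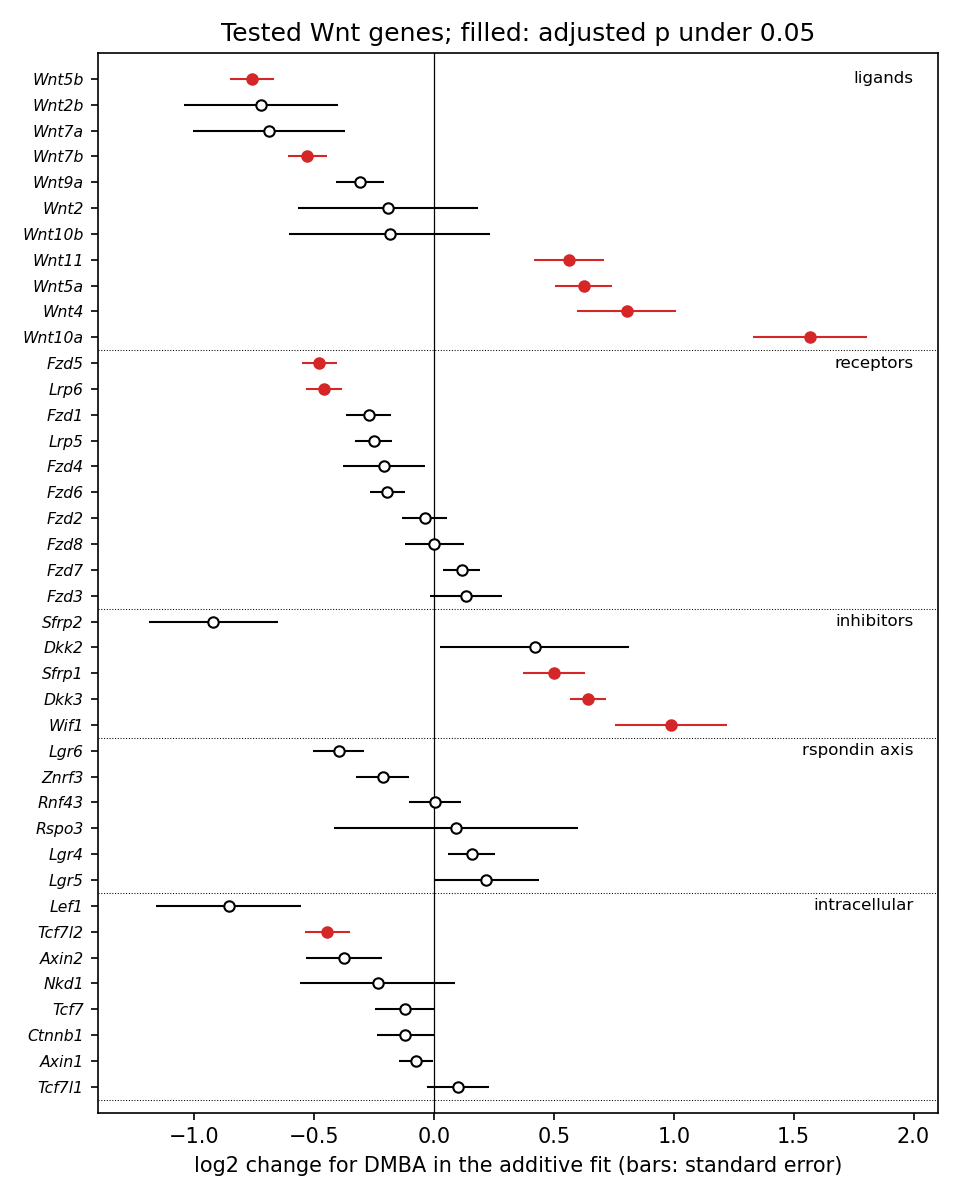
Log2 change for DMBA in the additive fit (x axis) of the 40 tested Wnt genes, by role and by size, 1 point a gene with its standard error; red filled points have an adjusted p under 0.05. Passing genes lie on both sides among the ligands, to the right among the inhibitors and to the left among the receptors.

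Wnt10a, a canonical ligand of skin and its appendages, had the largest change among the 40 tested genes. Its level was 4.15 CPM in control, 6.43 with BPA, 16.8 with DMBA and 13.6 with both, from 123, 123, 468 and 216 counts. Both DMBA-exposed libraries were above both others. The log2 change for DMBA was 1.57 (SE 0.237, edgeR adjusted p = 0.0120), and the log2 ratio was 2.00 for DMBA over control (95% counting interval 1.73 to 2.32) and 1.07 for the combined library over BPA (0.76 to 1.41). Of the genes tested here, Wnt10a alone was at least 2-fold higher in both of these pairs, which share no library.

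Wnt5a, a ligand known mainly for signalling outside beta-catenin, was at 193 CPM in control, 228 with BPA, 349 with DMBA and 299.7 with both. It rose by a log2 change of 0.62 (SE 0.118, edgeR adjusted p = 0.0222), and the DMBA-exposed libraries did not overlap the others. Its close relative Wnt5b went the opposite way, with 89.1, 87.2, 47.6 and 57.2 CPM in the same order. Wnt5b fell by 0.76 on the log2 scale (SE 0.0935, edgeR adjusted p = 0.00741), and its 2 libraries without DMBA were nearly level. Wnt7b, a ligand of luminal and ductal epithelium, was at 228, 248, 148 and 184 CPM and fell by 0.53 (SE 0.0804, edgeR adjusted p = 0.0122). Both of its DMBA-exposed libraries were below both others. Without the BPA library, and with DMBA as the single term, Wnt7b had an adjusted p of 0.0577 (edgeR, range over alternatives 0.00107 to 0.0577). The gene span of Wnt5b overlaps Fbxl14 and that of Wnt7b overlaps AU022754 in RefSeq GRCm38.p6, and the strand setting of the counting is not given in the sources used here. Fbxl14 had 745 to 1186 counts and AU022754 14 to 90 counts in these libraries.

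Wnt7b led the ligands in the libraries without DMBA and Wnt5a in those with it. Per kilobase of exon, Wnt7b made up 39.4% of all ligand reads in control and 39.5% in BPA. Wnt5a held 21.9% and 23.9%, the third place behind Wnt5b, which it nearly equalled in BPA. In DMBA and BPA+DMBA Wnt5a led with 41.7% and 34.2%, ahead of Wnt7b at 27.0% and 31.99%. Wnt5b held 26.8% and 24.1% without DMBA and 15.1% and 17.3% with it, and Wnt10a 1.34% and 1.91% against 5.72% and 4.43%. Together the ligands came to 125, 136, 119 and 125 CPM per kb across control, BPA, DMBA and the combined library, so the total differed less than the mix. A ratio of 2 genes within a library does not depend on library scaling. Reads of Wnt5a per read of Wnt7b were 0.847 in control (95% counting interval 0.817 to 0.877), 0.919 in BPA (0.882 to 0.958), 2.35 in DMBA (2.27 to 2.44) and 1.63 in BPA+DMBA (1.56 to 1.71). Reads of Wnt5a per read of Wnt5b were 2.17 (2.07 to 2.27), 2.62 (2.47 to 2.77), 7.32 (6.92 to 7.76) and 5.24 (4.88 to 5.63). In both ratios the DMBA library was highest and the control library lowest, with intervals that do not overlap, and the combined library lay between the DMBA library and the 2 without DMBA. Such intervals cover counting error only.

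**Figure D2:**
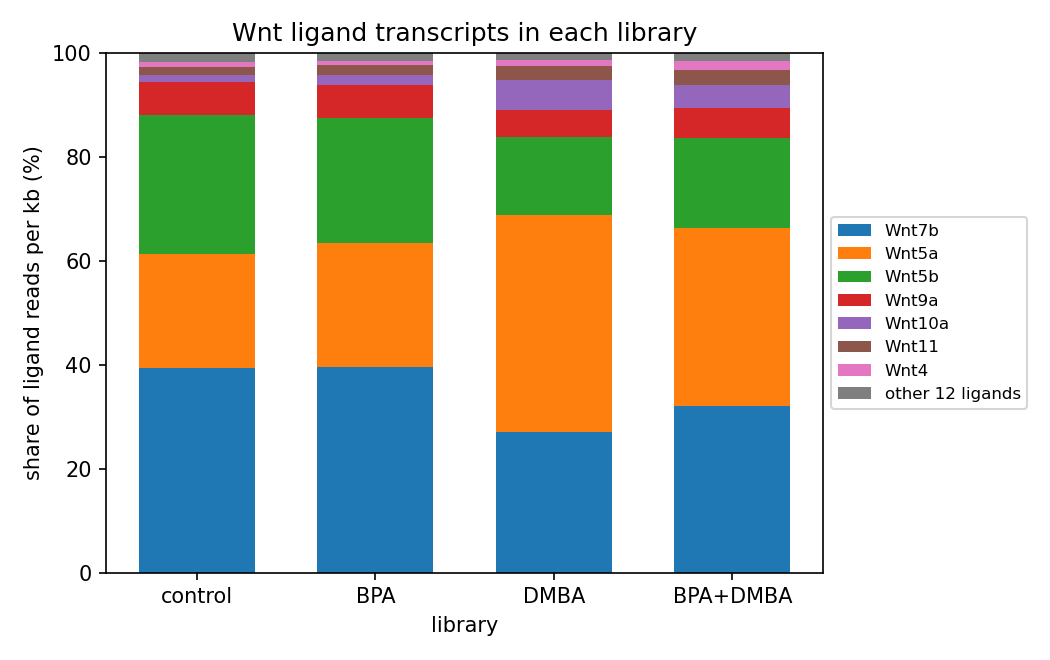
Share of ligand reads per kilobase of exon (y axis, percent) held by each Wnt ligand in the 4 libraries (x axis), with the 12 least abundant ligands joined. Wnt7b is the largest part in control and BPA, at 39.4% and 39.5%, and Wnt5a in DMBA and BPA+DMBA, at 41.7% and 34.2%.

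Wnt4, the ligand that progesterone induces in hormone-sensing luminal cells, was at 4.42 CPM in control, 4.08 with BPA, 6.57 with DMBA and 8.56 with both. It rose by a log2 change of 0.80 (SE 0.206, edgeR adjusted p = 0.0485) and was highest in the combined library. Wnt11, a non-canonical ligand, was at 7.32, 9.20, 11.2 and 13.0 CPM and rose by 0.56 (SE 0.145, edgeR adjusted p = 0.0486). Both genes stood just past the threshold: of 12 alternatives Wnt4 lost its call in 8 and Wnt11 in 9, with edgeR or DESeq2 adjusted p of 0.0209 to 0.255 and 0.0280 to 0.372. Wnt4 did so without the control (0.0838), BPA (0.0982) or BPA+DMBA library (0.0628), and Wnt11 without the control (0.258), BPA (0.0523), DMBA (0.0548) or BPA+DMBA library (0.0994), all with DMBA as the single term in edgeR. Pgr, the progesterone receptor and a luminal marker of the list, was named after its values were seen. It was at 14.3, 21.9, 45.03 and 33.5 CPM across control, BPA, DMBA and the combined library. The receptor genes Prlr and Esr1 of the same list went the other way. In the same order Prlr was at 150, 147, 80.7 and 75.5 CPM. Esr1, with 97 counts or fewer, was at 3.27, 2.72, 2.19 and 2.27 CPM. Of the 16 tested luminal markers 2 rose and 5 fell, with a median of -0.19. The part of these markers in the Wnt4 level was not tested.

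Other ligands did not pass. Wnt9a, a canonical ligand, was at 26.4, 29.1, 20.7 and 24.3 CPM, with a log2 value of -0.31 (SE 0.0995, edgeR adjusted p = 0.0888). Wnt2, Wnt2b, Wnt7a and Wnt10b lay between 0.718 and 2.04 CPM in all libraries, and the gene span of Wnt2b overlaps St7l. Wnt1, Wnt6, Wnt9b and Wnt16 had 7 counts or fewer in every library.

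The TCF/LEF motif letters CTTTGAT and CTTTGAA were searched on both strands in the 250 bases upstream of RefSeq starts. Matches were no more frequent in the set than in all windows. Among the ligands they fell in Wnt5b, which was lower with DMBA, and in Wnt11. The rise of Wnt11 lost its call in 9 of 12 alternatives. Wnt10a, Wnt5a and Wnt7b were not searched. The search covered 38 of the 57 genes, in 48 windows, of which 3 (6.25%) held a match, beside 7.48% of all 32851 windows. Both ligand windows are shown because they carry the letters of the pathway's own nuclear factors, in capitals and 5′ to 3′ on the gene's strand, from RefSeq build GRCm38.p6. Wnt11 has 2 such windows and Wnt5b has 3, and in each gene 1 window held a match, 51 bases before the start in Wnt11 and 71 in Wnt5b. The third match was in Dkk1. A match is a description of the letters and not a binding site.
Wnt11, chr7:98834862-98835111, plus strand: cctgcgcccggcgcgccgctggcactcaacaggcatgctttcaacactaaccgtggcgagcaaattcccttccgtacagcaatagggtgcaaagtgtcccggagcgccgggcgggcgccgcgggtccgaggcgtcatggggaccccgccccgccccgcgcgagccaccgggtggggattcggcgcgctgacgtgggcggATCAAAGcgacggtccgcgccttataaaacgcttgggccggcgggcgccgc
Wnt5b, chr6:119449387-119449636, minus strand: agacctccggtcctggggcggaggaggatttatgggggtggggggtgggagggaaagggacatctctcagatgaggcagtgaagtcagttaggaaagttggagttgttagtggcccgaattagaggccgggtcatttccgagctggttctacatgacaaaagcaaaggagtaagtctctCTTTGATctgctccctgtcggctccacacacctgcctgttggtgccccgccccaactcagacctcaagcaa

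**Figure D3:**
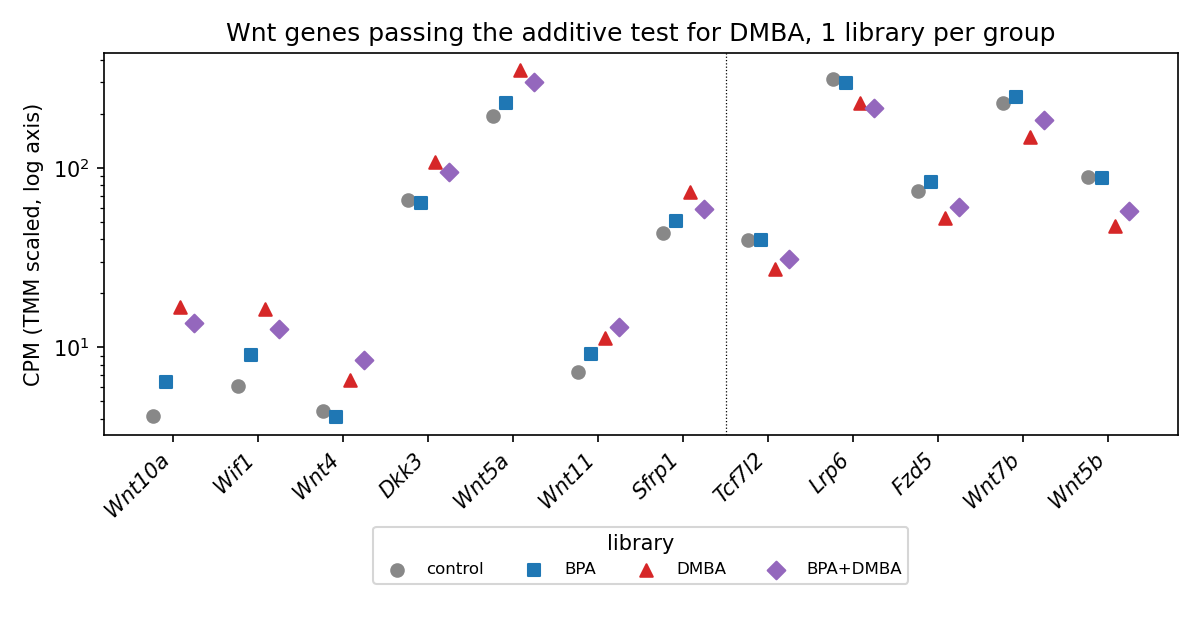
CPM (y axis, log scale) of the 12 Wnt genes that passed the additive test for DMBA in each of the 4 libraries, 1 point a library, in order of their log2 change from Wnt10a to Wnt5b. Left of the dotted line both DMBA-exposed libraries lie above both others, and right of it below them. The genes were selected by a test on these same libraries, so this order adds no support.

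Among the receptors, Lrp6, a co-receptor of canonical signalling, was at 314 CPM in control, 298 with BPA, 229 with DMBA and 215 with both. It fell by 0.46 on the log2 scale (SE 0.0754, edgeR adjusted p = 0.0146). Its paralog Lrp5 was at 246, 270, 214 and 218 CPM, with a log2 value of -0.25 (SE 0.0769, edgeR adjusted p = 0.0782). Both co-receptors were lower in both DMBA-exposed libraries than in both others, though Lrp5 did not pass. Fzd5, a Frizzled receptor, was at 73.8, 83.5, 52.6 and 60.3 CPM and fell by 0.48 (SE 0.0733, edgeR adjusted p = 0.0125). Without the BPA library Fzd5 had an adjusted p of 0.0679, with DESeq2 0.0868 (range over 12 alternatives 0.00231 to 0.0868). Lrp6 and Fzd5 have long exons, at 9368 and 6915 bases, and both lost their call when the length trend was removed (edgeR adjusted p = 0.106 and 0.0549, with 0.00295 to 0.106 over all alternatives for Lrp6). Across 13510 genes the log2 ratio followed exon length with a Spearman rho of -0.303 for DMBA over control and -0.350 for the combined library over BPA, a description over genes that share libraries. The part of length in these changes was not tested.

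The other Frizzled genes did not pass. Per kilobase, Fzd1, Fzd7 and Fzd6 led in every library. Fzd1 was at 37.7, 33.8, 27.8 and 31.4 CPM per kb across control, BPA, DMBA and the combined library, Fzd7 at 25.6, 28.2, 29.7 and 28.4, and Fzd6 at 29.1, 30.1, 26.5 and 25.2. Fzd1 came first in control, BPA and BPA+DMBA and Fzd7 in DMBA. The log2 value for DMBA was -0.27 for Fzd1 (SE 0.0948, edgeR adjusted p = 0.107), which passed without the BPA+DMBA library (0.0240, range over 12 alternatives 0.0240 to 0.523), and 0.11 for Fzd7 (SE 0.0789, adjusted p = 0.369). Fzd2, Fzd3, Fzd4 and Fzd8 lay between 1.03 and 8.97 CPM per kb, where the span of Fzd4, the lowest, overlaps Tmem135 (821 to 1897 counts against 121 to 261 for Fzd4), and Fzd9 and Fzd10 had 19 counts or fewer.

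The secreted inhibitors were higher as a sum in the DMBA-exposed libraries, at 34.3 CPM per kb in control, 36.1 with BPA, 57.1 with DMBA and 48.5 with both. Dkk3, a divergent member of the Dickkopf family, made up 52.2% to 57.9% of this sum across the libraries, with 66.4, 63.3, 108 and 94.4 CPM. It rose by a log2 change of 0.64 (SE 0.0745, edgeR adjusted p = 0.00644), the smallest adjusted p among the 40 tested genes. Wif1, which binds Wnt ligands outside the cell, was at 6.07, 9.04, 16.4 and 12.7 CPM and rose by 0.99 (SE 0.233, edgeR adjusted p = 0.0391). Its log2 ratio was 1.42 for DMBA over control (95% counting interval 1.19 to 1.69) and 0.49 for the combined library over BPA (0.19 to 0.79), with BPA itself 0.57 above control (0.27 to 0.88). Sfrp1, a Frizzled-related decoy of the ligands, was at 43.4, 50.4, 73.0 and 59.2 CPM and rose by 0.50 (SE 0.128, edgeR adjusted p = 0.0473). Wif1 lost its call in 7 of 12 alternatives, among them without the control (0.0770) or the DMBA library (0.0713), and Sfrp1 in 8, among them the same 2 (0.116 and 0.0778, edgeR). The adjusted p ranged from 0.00400 to 0.0871 for Wif1 and from 0.00199 to 0.146 for Sfrp1 over edgeR and DESeq2. Of 15 basal markers 9 rose with DMBA in the same libraries. Itga6 and Itgb1 of that list were lower in both DMBA-exposed libraries than in both others. The part of basal markers in the inhibitor levels was not tested.

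Sfrp2, another decoy, went the other way. It had 3.34 CPM in control, 3.24 with BPA, 1.58 with DMBA and 1.95 with both, from 99, 62, 44 and 31 counts. Its log2 value was -0.92 (SE 0.267, edgeR adjusted p = 0.0686), and it was past the threshold with DMBA as the single term (0.0340), also without the BPA+DMBA library (0.0366), and without a low-count filter (0.0426; range over 11 alternatives 0.0340 to 0.490). Dkk2 had 32 counts or fewer, Sfrp4 7 or fewer, Sfrp5 3 or fewer and Dkk1 1 or fewer.

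In the R-spondin axis none of the 6 tested genes passed, and 1 of them had an unadjusted p under 0.05, as did 31.1% of all tested genes. DESeq2 also called none of them. Lgr4, the most abundant of the Lgr receptors, was at 45.1, 48.5, 56.0 and 48.5 CPM per kb across control, BPA, DMBA and the combined library, with a log2 value of 0.16 (SE 0.0966, edgeR adjusted p = 0.319). Lgr6, which marks progenitors in skin and mammary gland, was at 17.2, 15.9, 11.3 and 14.0 CPM per kb, lowest in DMBA. Its log2 value was -0.40 (SE 0.106, edgeR adjusted p = 0.0547), past the threshold with DMBA as the single term (0.0399), also without the BPA+DMBA library (0.00199), and without a low-count filter (0.0174; range over 12 alternatives 0.00199 to 0.259). Lgr5, a marker of stem cells in several epithelia, was far lower at 0.837, 0.721, 0.890 and 0.935 CPM per kb, with a log2 value of 0.22 (SE 0.220, adjusted p = 0.542). The ligases Rnf43 and Znrf3 lay between 2.46 and 4.96 CPM per kb, and Rnf43 had a log2 value of 0.0043 (SE 0.109, edgeR adjusted p = 0.983).

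R-spondins themselves were scarce. Rspo3 had 34, 14, 19 and 25 counts across control, BPA, DMBA and the combined library, or 1.15, 0.732, 0.682 and 1.57 CPM. The combined library was the highest and DMBA the lowest. Its log2 ratio was 1.02 in BPA+DMBA against BPA (95% counting interval 0.11 to 2.16) but -0.68 in DMBA against control (-1.64 to 0.10). Rspo1 had 9, 8, 8 and 8 counts in the same order, and Rspo4 14 or fewer.

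Of the 8 intracellular genes Tcf7l2 passed. This DNA-binding partner of beta-catenin was at 39.4 CPM in control, 39.7 with BPA, 27.3 with DMBA and 31.0 with both, with no overlap. It fell by 0.45 on the log2 scale (SE 0.0946, edgeR adjusted p = 0.0298) and lost its call in 7 of 12 alternatives. These included leaving out the control (0.0643), BPA (0.0607) or DMBA library (0.0572, edgeR, DMBA as the single term), within a range of 0.00646 to 0.246 over all 12. Tcf7, Tcf7l2 and Tcf7l1 each held between 24.01% and 39.7% of the reads per kilobase of the 4 Tcf and Lef genes, and Lef1 between 1.31% and 3.25%.

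Axin2 and Lef1, 2 widely used targets of canonical signalling, were low. Axin2 had 268, 212, 210 and 124 counts across control, BPA, DMBA and the combined library, which is 9.03, 11.1, 7.53 and 7.81 CPM, with a log2 value of -0.38 (SE 0.159, edgeR adjusted p = 0.166). Lef1 had 56, 55, 26 and 28 counts, or 1.89, 2.87, 0.933 and 1.76 CPM, with a log2 value of -0.86 (SE 0.301, edgeR adjusted p = 0.110). In both genes the DMBA-exposed libraries lay below the others without a call, an order shared by 31.6% of all tested genes. For the combined library over control the log2 ratios were within counting error, at -0.21 for Axin2 (-0.53 to 0.10) and -0.09 for Lef1 (-0.81 to 0.58). For DMBA over control the counting interval included equality for Axin2 (-0.53 to 0.0041) but not for Lef1 (-1.75 to -0.32). For the combined library over BPA it excluded equality in both (-0.84 to -0.18 and -1.42 to -0.02). Nkd1, a feedback inhibitor, had 35 to 88 counts and a log2 value of -0.24 (SE 0.325, adjusted p = 0.661). Ctnnb1, which encodes beta-catenin, was by far the most abundant gene of the set with 587, 574, 565 and 504 CPM per kb, and Axin1, the scaffold of the destruction complex, was at 22.4, 21.7, 20.9 and 21.0. Their log2 values were -0.12 (SE 0.119, edgeR adjusted p = 0.536) and -0.07 (SE 0.0710, adjusted p = 0.522), and the Axin1 value changed sign with total counts as scaling. Tcf7 had a value of -0.12 (SE 0.124, adjusted p = 0.548).

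Counted by position alone, 9 of the 40 tested genes had both DMBA-exposed libraries above both others and 19 had them below, beside 31.7% and 31.6% of all tested genes. For genes that passed the additive test, this order comes from the same libraries that selected them and adds no support. A permutation test over 2 libraries against 2 cannot reach the threshold, and none was run. Total counts as scaling moved the median DMBA change of all genes from -0.0025 to 0.08 and turned the sign of 2 of the 40 genes, Axin1 and Fzd2.

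**Figure D4:**
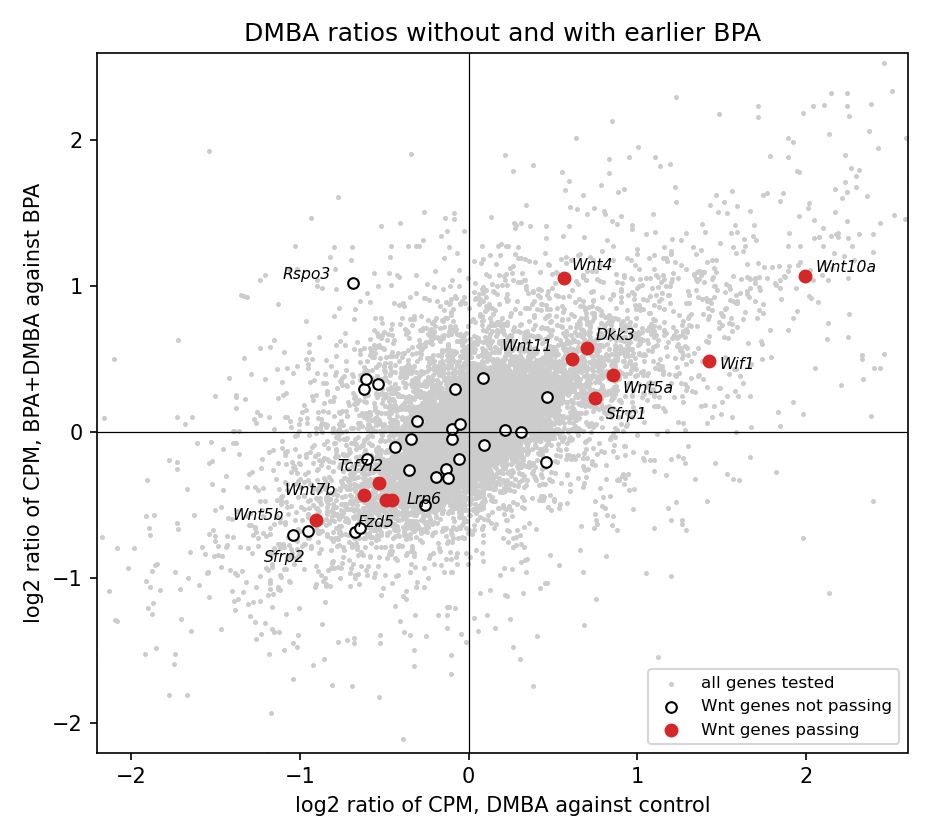
Log2 ratio of CPM in DMBA against control (x axis) and for the combined library over BPA (y axis), 1 point a gene, with all tested genes in grey, Wnt genes that passed the additive test in red and the other tested Wnt genes in white; grey points beyond the axes are not drawn. The 12 red points, selected by a test on these same libraries, lie in the lower left or upper right, and Rspo3 lies at -0.68 and 1.02.

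BPA changed none of the Wnt genes past the threshold. In edgeR's additive test 0 of 40 genes passed for BPA, beside 0% of all tested genes, and DESeq2 called 0 of them. At an unadjusted p under 0.05 there were 3 of the 40 in edgeR (Fzd5, Lef1 and Wnt7b, named after their values were seen), beside 2.23% of all tested genes. Log2 changes for BPA ran from -0.61 in Dkk2 to 0.73 in Lef1, with a median of 0.07 beside 0.0037 for all tested genes. In BPA against control 0 of the 40 genes differed at least 2-fold with a counting interval excluding equality, beside 0.829% of all tested genes (0.271% higher, 0.557% lower). The ratios ran from -0.67 in Nkd1 to 0.62 in Wnt10a. In BPA+DMBA against DMBA 1 gene differed, Rspo3 at 1.11 (95% counting interval 0.29 to 2.15), beside 1.09% of all tested genes (0.425% higher, 0.66% lower). Wnt10a was 0.62 above control in the BPA library (0.26 to 1.00) and 0.30 below DMBA in the combined library, a log2 ratio of -0.30 (-0.54 to -0.07). Lef1 was higher with BPA on both backgrounds, with ratios of 0.58 (0.04 to 1.17) and 0.86 (0.10 to 1.75), from 56 counts or fewer in each library.

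Set side by side, 3 of the 40 genes were past 2-fold for DMBA over control, beside 6.55% of all tested genes. Wnt10a and Wif1 were higher (4.24% of all genes) and Sfrp2 lower (2.31%). For the combined library over BPA 3 genes were past it, beside 3.74%, and Wnt10a, Wnt4 and Rspo3 were all higher (2.77% of all genes higher, 0.968% lower). For the combined library over control 2 were past it, beside 4.38%, and Wnt10a and Wif1 were both higher (2.98% of all genes higher, 1.41% lower). The first and the last of these share the control library. Most changes of Wnt genes past the test were under 2-fold. Departure from additivity, the difference between the BPA ratios with and without DMBA, was at least 1 on the log2 scale with an interval excluding 0 in 1 gene, Rspo3, beside 3.10% of all tested genes (1.82% upward, 1.28% downward). Wnt10a departed by -0.92 (95% counting interval -1.35 to -0.50) and Wif1 by -0.94 (-1.32 to -0.55), each with a larger DMBA ratio without BPA than with it.

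Other genes of the pathway were taken from lists by function, and their counts stand beside 6.67% of all tested genes higher and 7.72% lower in the same test. Of 48 tested genes of Wnt secretion, beta-catenin turnover and the nuclear complex, 1 rose and 10 fell with DMBA, with a median of -0.12, beside -0.0025 for all tested genes. Dixdc1, a Dishevelled and Axin related scaffold protein, was at 26.3, 20.6, 6.89 and 7.11 CPM across control, BPA, DMBA and the combined library and fell by 1.75 on the log2 scale (SE 0.147, edgeR adjusted p = 0.00348). Bcl9, a coactivator of beta-catenin, fell by 0.62, its relative Bcl9l by 0.37, Apc, a core of the destruction complex, by 0.50, the kinase Gsk3b by 0.38, the tankyrase Tnks, which marks Axin for breakdown, by 0.39 and the glypican Gpc4 by 0.48. Gpc3, another glypican, rose by 1.35 from 24, 28, 61 and 56 counts. With the length trend removed 0 rose and 4 fell, with DESeq2 0 and 3, and with total counts as scaling 1 and 3, against the shares of all genes given above for each of these settings. Apc, Gsk3b, Tnks, Bcl9l and Gpc3 were among those no longer called with the length trend removed, while Dixdc1 (edgeR adjusted p = 0.0150), Bcl9 (0.0376) and Gpc4 (0.0374) were still called.

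Of 25 tested genes of the planar polarity and other non-canonical branch 1 rose and 4 fell, with a median of -0.06. Ror1, a receptor for Wnt5a, fell by 0.75 on the log2 scale (SE 0.118, edgeR adjusted p = 0.0130), while Wnt5a rose. Fat4, a giant cadherin, fell by 0.73, Celsr1, a cadherin of planar polarity, by 0.54 and the formin Daam1 by 0.38, and Prickle2, a cytoplasmic polarity protein, rose by 0.72. With the length trend removed Prickle2 and Ror1 were called and Fat4, Celsr1 and Daam1 were not. DESeq2 called 0 higher and 2 lower, beside 2.5% and 2.45% of all tested genes, so it did not call Prickle2.

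Of 26 tested genes often used as canonical targets 6 rose and 6 fell, with a median of 0.02, and with total counts as scaling 6 rose and 2 fell. Wisp2, a matricellular protein, was at 40.5, 25.4, 4.81 and 10.3 CPM across control, BPA, DMBA and the combined library and fell by 2.20 (SE 0.372, edgeR adjusted p = 0.0159). Tnfrsf19, a receptor of the tumor necrosis factor family, fell by 1.10, Met, the receptor of hepatocyte growth factor, by 0.43 and Irs1, an adaptor of insulin signalling, by 0.42. Fst, an antagonist of activin, rose by 0.97, Birc5, a mitotic survival protein, by 0.83 and Tiam1, an activator of Rac, by 0.61. Procr, a surface marker of mammary basal stem cells that endothelial cells also carry, was at 6.64, 8.41, 12.9 and 13.9 CPM and rose by 0.85 (SE 0.150, edgeR adjusted p = 0.0181). Of 12 endothelial markers 7 rose in the same libraries, and the part of endothelial markers in the Procr level was not tested. With the length trend removed 5 rose and 3 fell, and DESeq2 called 2 and 1. Met and Irs1 were among those no longer called with the length trend removed (edgeR adjusted p = 0.0700 and 0.136).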

How the data were processed

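The members and the gene lists were chosen with earlier results of these data known. Total RNA (miRNeasy) went into TruSeq libraries, per the labels' protocols. The authors deposited raw counts per gene symbol, used here without change; CASAVA 1.8.2, HTSeq, DESeq and build mm9 are listed in the submitters' processing notes, with no role stated. The aligner is not named, and strandedness is not given in the sources used here. Summary entries outside genes (reads with no feature 11.3% to 13.5% of all counts, reads placed more than once 22.9% to 25.6%, ambiguous reads 0.435% to 0.449%) were left out.

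The 13638 genes reaching 20 counts in any library were normalised by TMM (trimmed mean of M-values), and BPA and DMBA entered as additive terms in edgeR 4.0.16 (quasi-likelihood, legacy settings). The residual holds any interaction of BPA and DMBA, and no replicate spread enters the p-values. Ratios of 2 libraries used a prior count of 2 and exact 95% Clopper-Pearson intervals, and departure a normal interval from the 4 counts. A pair differed at 2-fold or more with an interval excluding equality. Levels between genes are per kilobase of merged exons (GENCODE M21, build GRCm38), matched by symbol for all 57 genes. The fits and pair rules were tested on simulated data. Libraries differed beyond sampling noise (chi-square over degrees of freedom 11.5 to 68.1).

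Values are given for genes that passed a test or differed in a pair, for the 3 highest per kilobase in each class, and for Axin2, Lef1, Lgr5, Lgr6, Wnt4, Wnt10a, Wnt5a and Rspo1; from each other Wnt list up to 8 genes passing for DMBA, and Procr, are named. DESeq2 1.42.0, other scalings and filters, thinning, length correction and fits without single libraries were alternatives.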

Additional observations from a re-analysis of the deposited data

Results flagged for a closer look

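Rspo3, a secreted amplifier of Wnt signals, was singled out because its BPA ratio was negative without DMBA, within counting error, and positive with it. It was the 1 gene of the 40 (2.5%) called for departure, beside 3.1% of all tested genes, so the set held no more such calls than all genes. Its departure from additivity was 1.70 on the log2 scale (95% counting interval 0.52 to 2.89). The log2 ratio was -0.59 in BPA against control (-1.66 to 0.29) and 1.11 in BPA+DMBA against DMBA (0.29 to 2.15), and the difference was not tested, since each group holds 1 library. The gene had 34 counts at most. Summed fibroblast markers, led by collagens, had the same order of libraries as Rspo3, with 12270 CPM in BPA+DMBA, 11890 in control, 8782 in BPA and 7770 in DMBA. Of the single markers only Col1a1 and Pdgfra had this order. Col1a2, Col3a1, Postn, Thy1 and Fap were highest in control, and Dcn, Lum, Fbln1 and Dpt were higher in DMBA than in control. The part of fibroblasts in the Rspo3 level was not tested.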

How the results depend on the processing

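Dkk3, Wnt10a, Wnt5a and Wnt5b passed the test for DMBA in all 12 alternatives, Wnt7b and Lrp6 in 11. The count of 12 Wnt genes (7 higher, 5 lower) became 7 of 31 with a filter of 100 counts (9.97% of all genes tested there), 7 with DESeq2 (4.95%) and 5 with the length trend removed (7.12%); the cause was not tested. With DMBA as the single term it ran from 7 to 14 when single libraries were left out: 7 without control (7.79% of all tested genes), 7 without BPA (10.6%), 8 without DMBA (13.2%) and 14 without BPA+DMBA (20%), where the variance of a lone library is taken from the other group. At 1.5-fold in place of 2-fold, 13 genes differed in DMBA against control (15.1% of all tested genes), 6 in BPA+DMBA against BPA (10.4%), 2 in BPA against control (2.82%), 2 in BPA+DMBA against DMBA (4.11%) and 7 in BPA+DMBA against control (11.7%), and 5 departed from additivity (8.23%). Changes near 0 turned sign: Axin1 to 0.0107 with total counts, Tcf7 to 0.011 without the DMBA library, Rnf43 to -0.0069 without a filter, -0.0314 after thinning and -0.0783 without the DMBA or -0.0081 without the control library, and Rspo3 to -0.0164 after thinning and -0.4983 without the BPA+DMBA or -0.1253 without the BPA library (0.6931 without DMBA). Of the other DMBA changes 237 kept direction and call, 44 lost the call and 7 gained it. Of the pair ratios and departures 428 stayed within their counting interval and 22 moved out of it, all 22 with total counts as scaling. The BPA count stayed at 0 under each of 7 alternatives. No paired analysis was possible because each group holds 1 library. Counting error limits genes under about 100 counts, such as Lef1, Rspo3 and Sfrp2.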

Other observations

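Ratios of reads between related receptors within a library, which do not depend on library scaling, also differed between libraries, with intervals that cover counting error only. Lrp6 and Lgr6 have longer exons (9368 and 6726 bases) than Lrp5 and Lgr4 (6008 and 5060). Fzd7 (4532) is slightly longer than Fzd1 (4197). The part of length in these ratios was not tested. Reads of Lrp6 per read of Lrp5 were 1.28 in control (95% counting interval 1.24 to 1.32), 1.10 in BPA (1.06 to 1.15), 1.07 in DMBA (1.03 to 1.11) and 0.989 in BPA+DMBA (0.943 to 1.04), so the control library stood above the other 3. Reads of Lgr4 per read of Lgr6 were 1.98 (1.90 to 2.06), 2.29 (2.17 to 2.41), 3.72 (3.54 to 3.90) and 2.604 (2.45 to 2.76) in the same order, highest in DMBA. Reads of Fzd7 per read of Fzd1 were 0.734 (0.703 to 0.767), 0.900 (0.852 to 0.951), 1.15 (1.10 to 1.21) and 0.977 (0.918 to 1.04), lowest in control and highest in DMBA.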
